A study of Drosophila melanogaster with 2 samples.

Results

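The intergenic peaks of the Drosophila zinc-finger protein D19B are the summits that lay outside every annotated gene and more than 500 bp from every annotated transcription start site (TSS). Of the 4309 peaks that passed the authors' irreproducible discovery rate step, which keeps peaks ranked alike in replicate libraries, 610 met this rule. They made up 14.2% of the peaks (95% exact interval 13.1% to 15.2%). A further 1776 summits lay more than 500 bp from a TSS but inside a gene, and 1923 lay within 500 bp of a TSS. The rule uses position alone, and transposable elements did not count as genes in it.

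The chromatin came from whole embryos of both sexes, aged 0 to 24 h, of a transgenic fly line that makes D19B with green fluorescent protein (GFP) fused to its C terminus. It was sonicated to 200 to 800 bp and precipitated with an antibody against GFP. The 2 libraries are numbered as biological replicates 2 and 3 and form 1 group, D19B-GFP embryos, so there was no other genotype or treatment to set them against. The tagged copy comes from 1 transgenic line, and a whole embryo mixes many cell types and all embryonic stages. The control library used in peak calling is not analysed here.

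D19B belongs to the insect family of C2H2 zinc-finger proteins that carry a zinc-finger associated domain at their N terminus. In this family the domain pairs 2 copies of a protein, and the zinc fingers read DNA in a sequence-dependent way. Sequence outside genes holds enhancers, insulators, repressive elements and remains of transposable elements, and in the compact fly genome it is often close to a gene on either side. A ChIP peak gives a place where the protein was enriched and does not tell which of these elements it is.

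Around the intergenic summits, 3 kinds of 10-base word that share the core GGGTAT were found. For each kind, the sequence at 2 of its tallest peaks is given with the 10-base word in capitals. The sequences were read 5' to 3' from the release 6 (dm6) assembly on the strand that carries GGGTAT. They show how far these examples agree on either side of the core, not how far all members do. The first kind is TACAGGGTAT, the second TAATGGGTAT and the third GGGTATCTGA. The second kind and the third overlap where both stand at 1 copy of the core, as in the last sequence given, and 3 members held both within 200 bp of the summit.
lncRNA:CR44603 to lncRNA:CR45695, chr2L:1634157-1634197, minus strand: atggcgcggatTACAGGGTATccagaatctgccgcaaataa
CG5958 to CG5973, chr2L:7434304-7434344, plus strand: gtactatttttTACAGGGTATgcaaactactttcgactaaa
Sumo to snRNP-U1-70K, chr2L:6968331-6968371, minus strand: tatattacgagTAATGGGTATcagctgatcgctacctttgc
aop to lncRNA:CR43751, chr2L:2179580-2179620, minus strand: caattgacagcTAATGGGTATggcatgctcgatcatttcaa
CG43774 to ed, chr2L:4030687-4030727, plus strand: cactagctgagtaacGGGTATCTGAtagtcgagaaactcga
CG8565 to ArgRS, chrX:15841581-15841621, plus strand: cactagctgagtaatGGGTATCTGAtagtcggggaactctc

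The sequences of the first and second kinds resembled each other little outside the capitals, whereas the pair of the third kind read alike over most of their length. Both peaks of that pair lay in annotated copies of the transposable element INE-1, as did 9 of the 19 members with the third kind. In these examples the word lay 3.50 to 90.5 bp from the summit, and farther than 50 bp in the gaps CR44603 to CR45695, CG5958 to CG5973 and CG43774 to ed. Of the 15 tallest intergenic peaks, 2 held the core within 50 bp of the summit and 9 within 200 bp. The 61 bases around the summits of 3 tall peaks without the core in that nearer window, the tallest of all and those beside CheA84a and robo2, are given on the plus strand with the summit base in capitals.
lncRNA:CR45588 to corto, chr3R:5065153-5065213: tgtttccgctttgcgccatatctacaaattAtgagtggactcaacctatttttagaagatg
CheA84a to CG7800, chr3R:8207075-8207135: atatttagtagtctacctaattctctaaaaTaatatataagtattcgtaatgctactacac
robo2 to CG43401, chr2L:1426913-1426973: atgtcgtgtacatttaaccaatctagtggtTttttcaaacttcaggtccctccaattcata

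The intergenic peaks were mostly of modest height. The signal deposited for each peak is the authors' height value for both libraries together, on a scale that is not stated. It is no average of the libraries, since the tallest member had 1947.0 against 1335.6 in replicate 2 and 609.4 in replicate 3. This signal had a median of 180.8 in the intergenic peaks, with quartiles of 136.8 and 285.5 and a range of 117.3 to 1947.0. The median was 188.7 in distal peaks inside genes, 218.3 in TSS-proximal peaks and 199.5 over all peaks. The tallest decile of all peaks held 36 intergenic peaks, or 5.90% of them (4.17% to 8.08%), against 13.6% of the TSS-proximal peaks. The lowest decile held 89, or 14.6% (11.9% to 17.6%), against 9.98% of all peaks. For distal peaks in genes these shares were 7.43% (6.26% to 8.75%) and 10.9% (9.51% to 12.5%), with intervals that overlap the intergenic ones. The tallest intergenic peak had rank 52 in the whole list. The intervals cover counting error only, since peaks of 1 group are not replicates, and no p-value was computed. Just inside the distance limit, the 38 members at over 500 to 600 bp from a TSS had a median signal of 191.4. Just outside it, the 62 peaks at over 400 to 500 bp that also lay outside genes had 239.2.

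**Figure D1:**
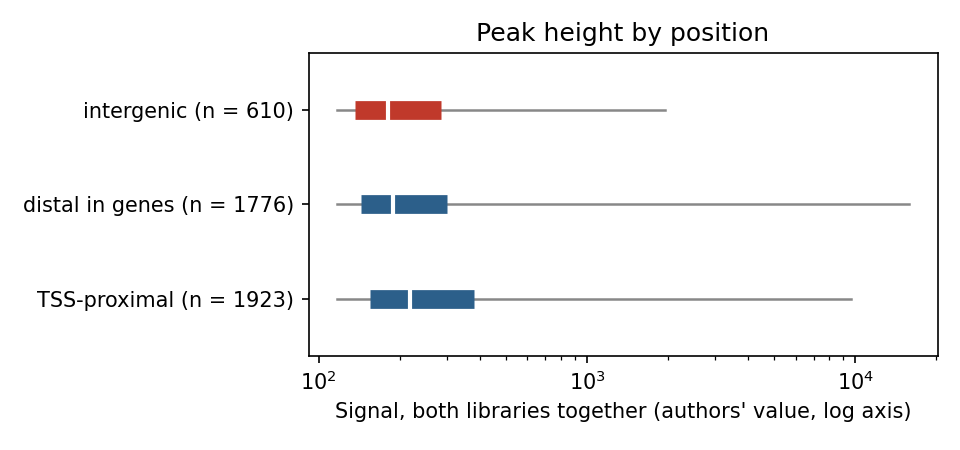
Authors' signal for both libraries together (log axis) of intergenic, distal genic and TSS-proximal peaks. Thick bars span the quartiles, white marks are medians and thin lines run from the lowest to the highest peak; the intergenic median of 180.8 was the lowest and the highest intergenic peak reached 1947.0.

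The tallest intergenic peak lay on arm 3R at 5065183, between lncRNA:CR45588 and corto, a gene for a chromatin protein that acts with Polycomb and trithorax factors. Its signal was 1947.0, with 1335.6 in replicate 2 and 609.4 in replicate 3, and the nearest TSS was 11445 bp away. The second tallest, at 6968370 on 2L, lay in a short gap of 1066 bp between Sumo, the small ubiquitin-like modifier, and snRNP-U1-70K, a protein of the U1 splicing particle. It had a signal of 1858.8, with 1198.5 in replicate 2 and 657.1 in replicate 3. The first of these gaps was 24040 bp long.

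The third peak, at 1634272 on 2L between lncRNA:CR44603 and lncRNA:CR45695, had a signal of 1796.1, with 1289.5 and 506.3 in replicates 2 and 3. The fourth stood 518 bp from the TSS of Treh, which encodes trehalase, the enzyme that splits the blood sugar trehalose, and had a signal of 1684.9. The peak of rank 6 among the members lay 854 bp upstream of aop, an ETS-domain repressor also called yan that acts below receptor tyrosine kinases. It had a signal of 1124.2, with 849.4 in replicate 2 and 277.9 in replicate 3. Each of these peaks was higher in replicate 2, as were most intergenic peaks.

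The other tall peaks had signals of 891.4 to 1222.1. They stood between lncRNA:CR45292 and lncRNA:CR44184 (1222.1), CheA84a and CG7800 (1098.1), and lncRNA:CR44723 and lncRNA:CR45250 (1093.8). One lay between robo2, a receptor for the axon guidance cue Slit, and CG43401 (1081.8). Its heights were nearly level, at 536.5 for replicate 2 and 560.4 for replicate 3. Another lay between Hacd1 and the rhodopsin gene Rh5 (1062.4), and a second peak of the CR44603 to CR45695 gap reached 1051.2. The peak 4412 bp upstream of rpr, which encodes the cell-death activator Reaper, reached 981.9. Its signal of 634.4 in replicate 2 stood against 149.0 in replicate 3. The peak between CG17896 and CG17778 had 935.6 and that between Sol1 and the cytochrome P450 gene Cyp9f2 had 920.5. The last of the 15 tallest lay between Su(z)2, a Polycomb group gene, and CG13323 (891.4).

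Both libraries held most intergenic peaks, which the selection itself favours. The discovery rate step keeps peaks ranked alike in replicate libraries, so the shares below are no independent support for the peaks. A summit within 100 bp was found in both libraries for 548 of the 610, or 89.8% (87.2% to 92.1%), where the share over all 4309 peaks was 86.7%. It was 89.2% for distal peaks in genes and 83.3% for TSS-proximal peaks. Replicate 2 alone held 33, replicate 3 alone held 27, and 2 had no summit within 100 bp in either library. The tallest member without a summit in both was the one between asRNA:CR44849 and lncRNA:CR45352, with a signal of 589.1 and a summit in replicate 2 alone (372.9). These lists held 30000 regions each, background included, so a match does not by itself mark a strong peak. Among the 4309 tallest regions of each library, 455 members (74.6%) matched in replicate 2 and 499 (81.8%) in replicate 3. Over all peaks these shares were 85.6% and 75.5%.

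The median signal of the members was 114.0 in replicate 2 and 72.24 in replicate 3, and signals are not scaled between the libraries. In the same order, the medians were 125.1 and 70.14 in distal peaks inside genes and 148.1 and 81.78 in TSS-proximal peaks. Over all peaks they were 133.8 and 74.85. The intergenic median was thus the lowest of the classes in replicate 2 but not in replicate 3. The ratio of replicate 2 to replicate 3 had a median of 1.714 in the 548 intergenic peaks of both libraries and 1.910 in all such peaks. Replicate 2 was the higher in 453 of them, or 82.7% (79.2% to 85.7%), against 92.2% over all peaks. The heights in the libraries followed each other across the 548 peaks with Spearman's rho = 0.536 and Pearson's r = 0.622 on the log10 scale. These correlations are across peaks, which share libraries and control. They were 0.625 and 0.752 across the 1585 distal peaks in genes and 0.793 and 0.844 across the 1601 TSS-proximal peaks. Across all 3734 peaks of both libraries they were 0.691 and 0.783. The intergenic peaks also covered a narrower range of height, up to 1947.0, than the TSS-proximal peaks, up to 9619.7.

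The most uneven member was a second summit between ph-d and ph-p, the paired polyhomeotic genes, with 328.9 in replicate 2 and 26.49 in replicate 3, a ratio of 12.4. At the other end, the peak at 19219604 on 2L between lncRNA:CR44189 and CG31797 had 46.56 in replicate 2 and 223.7 in replicate 3. A ratio over 4 or under 0.5 was found in 33 intergenic peaks (6.02%) and in 6.37% of all peaks of both libraries.

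**Figure D2:**
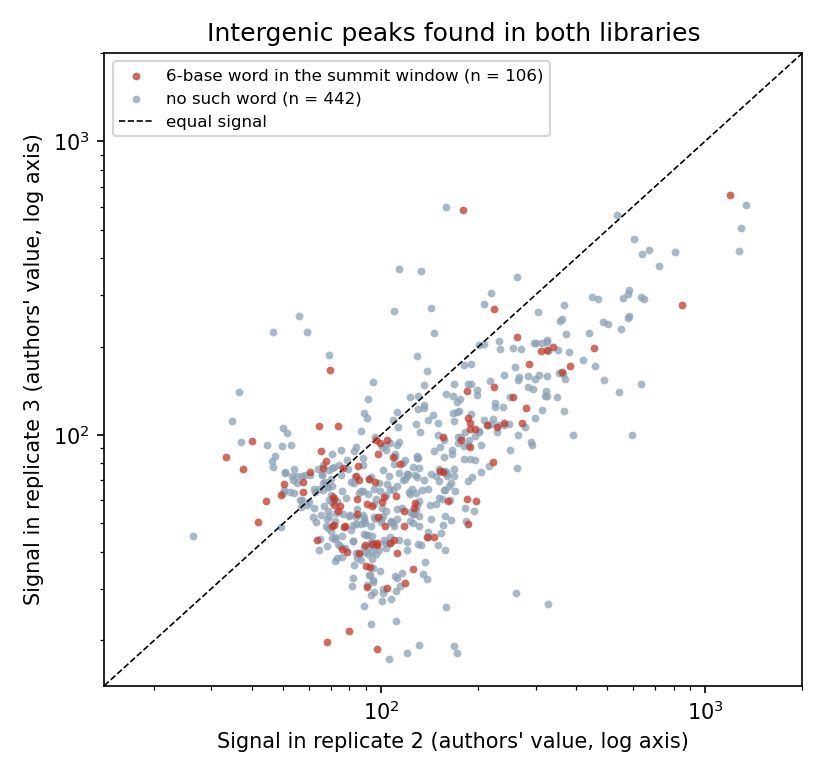
Signal of each of the 548 intergenic peaks in replicate 2 (x) and replicate 3 (y), both on log axes and in the authors' unscaled values; red points hold GGGTAT within 50 bp of the summit and the dashed line marks equal signal. Most points, 453 of 548, lie on the side of replicate 2, and the red points are spread among the others.

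The intergenic peaks were spread over all arms but the Y. There were 146 on 2L, 82 on 2R, 166 on 3L, 106 on 3R, 102 on X and 8 on the small chromosome 4. Sequence that could have held a member, outside genes and more than 500 bp from a TSS, came to 28.3% of the assembly, and it held 15.7 members per Mb. Per Mb of such sequence, 2L held 21.7, X 19.2, 3L 18.3, 3R 13.8 and 2R 11.0. Chromosome 4 had 32.6 per Mb, a value that rests on its 8 peaks. The Y chromosome had no peak of any class in the list.

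The summits stood at all distances from the nearest TSS beyond the limit. The median was 2551 bp, with quartiles of 1155.2 and 5480 bp. There were 129 members at over 500 to 1000 bp, 127 at over 1000 to 2000 bp, 188 at over 2000 to 5000 bp and 65 beyond 10000 bp, while the remaining 16.6% lay at over 5000 to 10000 bp. Median signal over the 5 bands, nearest first, was 191.1, 206.4, 176.9, 161.6 and 166.0, a small range beside the spread of the members' signal. The farthest member lay 37703 bp from a TSS, at 1139573 on 3L between bab1 and bab2, a pair of genes for BTB-domain nuclear proteins that pattern legs, ovary and abdomen. Its signal was 265.2, or 165.3 in replicate 2 and 85.87 in replicate 3. The next farthest stood 36682 bp from a TSS between NijA and CG43245 (162.5) and 34355 bp away between Toll-6 and CG33259 (127.3).

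**Figure D3:**
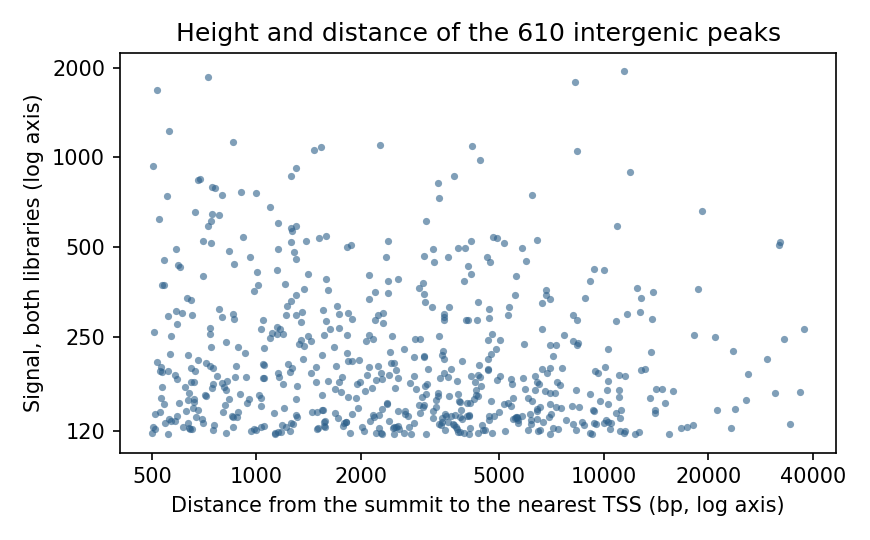
Signal of the 610 intergenic peaks for both libraries together against distance to the nearest TSS, both on log axes, with 1 point per peak. Tall peaks occurred at all distances, among them 1947.0 at 11445 bp and 1858.8 at 726 bp.

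The nearest start belonged to a protein-coding gene for 409 members (67.0%), to a noncoding RNA gene for 184 (30.2%), to a tRNA gene for 13, to a pseudogene for 3 and to a snoRNA gene for 1. The summit lay upstream of that start in 388 cases (63.6%, 59.6% to 67.4%). The nearest gene boundary was a 3' end for 288 members (47.2%), a share that the distance rule raises, since it removes summits near starts and none near 3' ends. Both neighbouring genes were protein-coding for 308 members (50.5%), 1 was not for 227, and neither was for 75.

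The members filled 457 of the 6612 gaps between genes that had room for one. In 360 gaps there was 1 member, in 65 there were 2, in 20 there were 3, in 9 there were 4, and 3 gaps held more. Gaps with a member had a median length of 7777 bp, against 1514 bp for gaps without one. Longer gaps held a member more often, 22.1% of those over 20 kb against 2.18% of those up to 2 kb. Per Mb of eligible sequence the order was the opposite. Gaps up to 2 kb held 54.7 members per Mb (exact Poisson interval 43.4 to 68.0), those of 2 to 5 kb 34.3, of 5 to 10 kb 23.0, of 10 to 20 kb 18.6 and over 20 kb 7.34 (6.19 to 8.66).

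Gaps between divergent genes, where both neighbours start at the gap, held 171 members, or 22.4 per Mb (19.2 to 26.0). Tandem gaps held 311, or 15.6 per Mb (13.9 to 17.5), and convergent gaps, where both neighbours end, held 128, or 12.7 per Mb (10.6 to 15.1). Within the length classes the order was mostly kept. In gaps of up to 2 kb the values were 113, 60.9 and 30.5 per Mb for divergent, tandem and convergent gaps. In gaps over 20 kb they were 8.28, 7.38 and 6.70, and in gaps of 10 to 20 kb the convergent value (16.5) was above the tandem value (15.8). In every length class the intervals of tandem gaps overlapped those of both other orientations, and divergent and convergent intervals lay apart only up to 2 kb (65.7 to 181 and 17.7 to 48.8). Gap length and distance from a start vary together, and their separate parts in these densities were not tested.

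**Figure D4:**
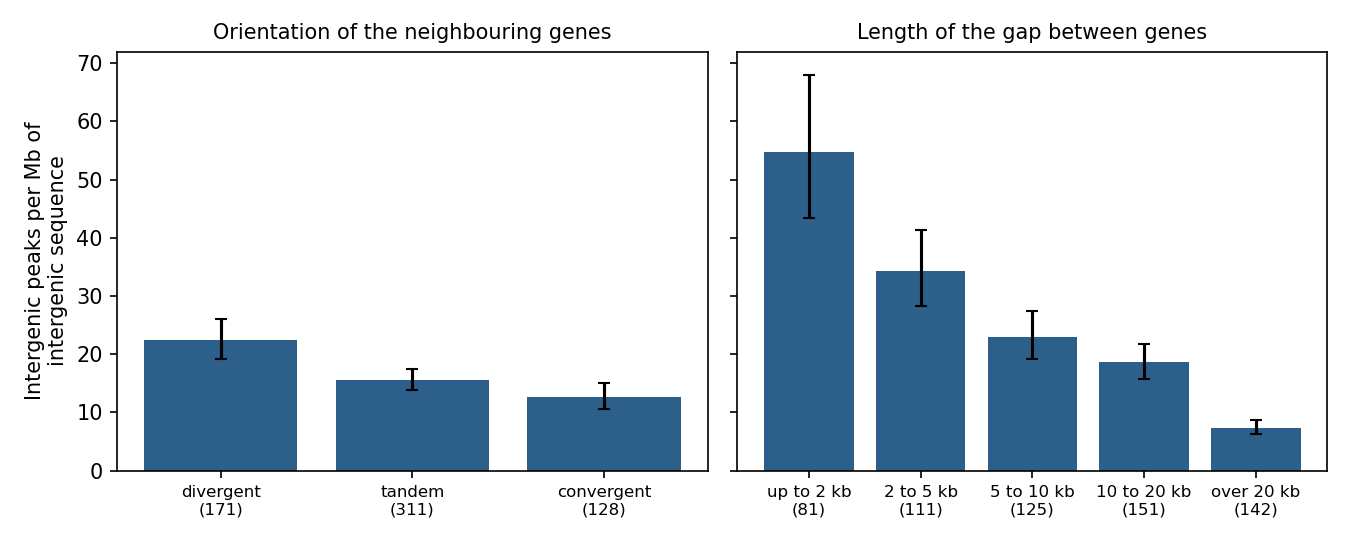
Intergenic peaks per Mb of sequence that could hold one, by orientation of the neighbouring genes (left) and by gap length (right). Bars are counts per Mb, error bars are 95% exact Poisson intervals and numbers in parentheses are peaks; density was 22.4 per Mb in divergent gaps and 54.7 per Mb in gaps up to 2 kb, against 7.34 over 20 kb.

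The gaps richest in members were not those of the tallest peaks alone. The gap of 75047 bp between NijA, which encodes the cell-surface protein Ninjurin A, and CG43245 on 3L held 9 members within 25194 bp, with signals of 162.0 to 660.2 and a median of 246.3. One of them, at 10739801 with a signal of 521.2, had no summit of its own within 100 bp in either library, and it stood 199 bp from the next peak. The gap of 20910 bp between lncRNA:CR44603 and lncRNA:CR45695 on 2L held 8 members of 118.2 to 1796.1. That of 32964 bp between tRNA:Ile-TAT-1-2 and CG13898 on 3L held 7 members, of 119.9 to 335.9. The 2 shortest of the gaps with 4 members were Hacd1 to Rh5 on 2L (5886 bp, 123.9 to 1062.4) and lncRNA:CR45641 to lncRNA:CR45643 on 3R (8437 bp, 122.7 to 762.1). Members of 1 gap, and summits of 1 region, share their surroundings and are not independent sites.

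Among genes of 15 lists, which cover developmental and other functions, members stood beside genes of 12 lists. Over all annotated genes, 873 of 18277 (4.78%) flanked a member. The 30 segmentation genes included 9 that did. Longer gaps held a member more often, and per Mb the gaps beside the segmentation list held 17.0 members (8.46 to 30.3), against 16.2 over all gaps that lie between a pair of genes. The tallest of these peaks, at 3832522 on 2L with a signal of 284.9, lay between slp1 and slp2, the paired forkhead factors of segmentation. It had 135.4 in replicate 2 and 147.5 in replicate 3. Another, of 194.7, lay beside the head gap gene ems.

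The homeodomain and nuclear receptor list had 11 of 55 genes beside a member and 24.2 members per Mb (13.6 to 40.0). It was led by a pair of summits beside Eip75B, an ecdysone-induced nuclear receptor, with signals of 680.3 and 456.8. The dorsoventral and mesoderm list had 5 of 28 genes and 22.6 per Mb (8.31 to 49.3), led by bin, a forkhead factor of the visceral mesoderm (588.1), and then Doc2, a T-box factor of the heart and dorsal ectoderm (194.8). The neurogenesis list had 6 of 38 and 17.1 per Mb (6.86 to 35.2), led by a peak 58734 bp from the POU factor gene vvl (193.4) and 1 beside the SoxB factor gene D (156.1). Axon guidance and adhesion genes had 10 of 65 and 15.6 per Mb (8.72 to 25.7), led by robo2 and by ed, which encodes the adhesion protein Echinoid (612.1). The signalling list had 6 of 43 and 13 per Mb (4.23 to 30.4), led by upd1, a ligand of the JAK/STAT pathway (285.5), and fz, a Wnt receptor (230.1). A listed gene beside a member was often not the nearest start. The nearest TSS belonged to a listed gene for 4 of the 11 members beside segmentation genes, 2 of 7 for neurogenesis, 5 of 15 for the homeodomain list and 9 of 15 for axon guidance.

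The Polycomb and trithorax list had 4 of 27 genes beside a member, and all 4 encode or resemble subunits of Polycomb repressive complex 1. The gaps beside this list held 6 members in 0.0690 Mb, or 87.0 per Mb (31.9 to 189). The interval lies above the 16.2 per Mb over all gaps, but the list was one of 15 and the 6 summits fell at 2 gene pairs, Psc with Su(z)2 and ph-d with ph-p. The interval counts each summit as its own site. By nearest TSS there was no such excess. That TSS belonged to a gene of the list for 3 members (0.492%) and for 21 of all peaks (0.487%). Beside Su(z)2 the signals were 891.4, at 27431 bp from the gene, and 142.2, and beside its neighbour in the complex, Psc, they were 309.3 and 235.7. Between ph-d and ph-p the 2 summits belonged to 1 region and had 638.4 and 356.0.

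Among genes of differentiated functions, members stood beside 7 of 56 neurotransmitter receptor and channel genes (15.5 per Mb, 6.21 to 31.8), led by the serotonin receptor genes 5-HT7 (346.3) and 5-HT2A (300.6). Chemoreceptors had 9 of 187, led by the odorant receptor gene Or65a (443.8) and the taste receptor gene Gr93a (406.2), with 10 per Mb (4.59 to 19). Cuticle proteins had 4 of 125, led by Cpr76Ba (389.7) and Cpr47Eg (196.8), with 15.5 per Mb (4.22 to 39.7). Cytoplasmic ribosomal proteins had 3 of 85, led by RpS10b (208.5), with 6.85 per Mb (1.41 to 20). Muscle genes had 1 of 23, Act57B, a muscle actin (134.9), with 10.6 per Mb (0.267 to 58.8). The 8 Hox genes, the 30 genes for zinc-finger proteins of D19B's own family and insulator proteins, and the 13 yolk and eggshell genes had none. The eligible sequence beside these lists came to 0.0546, 0.0146 and 0.00643 Mb, so that a count of 0 allows up to 67.6, 252 and 574 members per Mb, limits that include the 16.2 per Mb of all gaps. No member had D19B or D19A as a neighbour.

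The word ACAGGGTA stood within 50 bp of the summit of 23 intergenic peaks, or 3.77% (2.40% to 5.60%), and over all peaks the share was 2.97%. In windows of the same length 500 bp to either side of the intergenic summits it was found in 1 of 1220 (0.0820%). It was searched on both strands, as were all words. The shorter core GGGTAT, which overlaps it and was picked after the data were seen, stood at 115 of the 610 summits, or 18.9% (15.8% to 22.2%), and over all peaks at 14.1%. In the flanks of the intergenic summits it stood in 34 of 1220 windows (2.79%). Of the 23 summits with ACAGGGTA, 19 also held this core. The core stood at 17.1% of the distal summits in genes and 9.83% of the TSS-proximal summits. The intervals of the intergenic and the TSS-proximal share do not overlap, and those of the intergenic and the distal genic share do. The core led the 6-base words ranked at the intergenic summits, so the choice favours the intergenic share. The difference between the classes was not tested.

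In wider windows, 150 bp to either side, the core was found at 266 intergenic summits (43.6%, 39.6% to 47.6%) and in 9.84% of windows 1000 bp away. Copies were as dense at 50 to 75 bp from the summit as at the summit itself, with 2.62 and 2.36 copies per kb in these 25 bp steps. Density fell to 1.34 per kb at 125 to 150 bp and lay between 0.525 and 0.689 per kb from 150 to 300 bp. The core thus gathered within about 150 bp of the summit but not at 1 fixed place. Of the 115 windows, 15 held 2 copies.

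**Figure D5:**
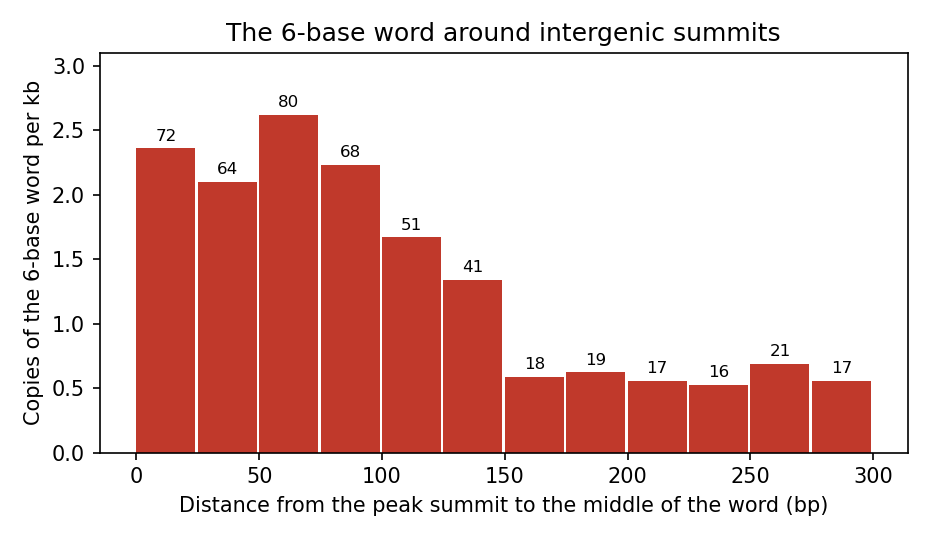
Copies of GGGTAT per kb, on both strands, in 25 bp steps of distance from the 610 intergenic summits, with the number of copies above each bar. Density was 2.36 per kb at the summit, 1.34 per kb at 125 to 150 bp and below 0.7 per kb farther out.

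Counted within 50 bp of the summit, the core did not go with taller peaks. The median signal was 165.9 (quartiles 133.6 and 265.3) with GGGTAT there and 183.2 (137.5 and 291.5) without it. The peaks without it there include many with the core farther out. Within 200 bp, 46.4% of all members held it, as did 9 of the 15 tallest. Median height was not compared for that wider window. Over 5 equal classes of height the share with the core ranged from 14.8% to 23.8%, with overlapping intervals, and was 16.4% in the tallest class. By distance from a TSS the share ranged from 17.0% to 20.9%. Both libraries held 106 of the 115 peaks with the core (92.2%) and 442 of the 495 without it (89.3%).

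The bases beside the core were unevenly used in the 115 peaks. Counted back from its first G, the base 3 before was A in 60.9% and the base 4 before was T in 53.0%, and the base 14 counted from the first G was T in 58.3%. Within 200 bp of the summit, TACAGGGTAT, the first kind printed above, stood at 37 intergenic summits (6.07%) and in 1 of 1220 flank windows, and TAATGGGTAT at 27 (4.43%) and in 2. GGGTATCTGA stood at 19 (3.11%) and in 3 flank windows. These words were ranked from the same windows, so the counts describe them and test nothing. The median distance from summit to word was 59.5 bp, 57.5 bp and 42.5 bp for these kinds. Heights overlapped, with medians of 185.5, 207.2 and 188.9, and the highest peaks of the kinds had 1796.1, 1858.8 and 612.1.

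Most copies of the words in the genome lay away from any peak in the list, more so for the third kind. Of 183 copies of TACAGGGTAT in eligible intergenic sequence, 39 (21.3%) lay within 150 bp of a listed summit, and of 181 copies of TAATGGGTAT, 25 did (13.8%). For GGGTATCTGA it was 18 of 338 (5.33%), and for the bare core 377 of 13052 (2.89%). Since the longer words were picked from windows at these summits, a larger share under a peak follows from the choice.

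The third kind was often part of a transposable element. Of its 967 copies on the chromosome arms, 502 (51.9%) lay in annotated copies of INE-1, an old and abundant element related to the Helitrons and held to be inactive. For TAATGGGTAT it was 12%, and of TACAGGGTAT copies 3.63% lay in elements of any kind. In all, 18 intergenic summits (2.95%, 1.76% to 4.62%) lay in an annotated transposable element, against 1.35% of all peaks, and every one of the 18 was in INE-1. Annotated elements sum to 9257433 bp, beside 137547960 bp of chromosome arms. Their share of the eligible intergenic sequence was not computed, so no excess of peaks in elements can be read from these shares. Of the 18 summits, 17 held the core GGGTAT within 200 bp and 9 held GGGTATCTGA. The element itself often carries these words, since its 2235 annotated copies held 1192 copies of the core and 502 of GGGTATCTGA. The share of all INE-1 copies with either word was not computed, so these counts do not set the copies under peaks apart. The 18 peaks were of ordinary height, from 118.3 to 612.1 with a median of 179.6, and 16 had a summit in both libraries.

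The tallest INE-1 peak lay 738 bp from the TSS of ed, where replicate 2 had 263.7 and replicate 3 had 345.3. Others lay between CG8565 and ArgRS (389.5), between bin3 and Pld (452.9), and on chromosome 4 between fuss and toy (129.3). The last stood 1812 bp from the nearest TSS, on the side of fuss, and toy is an eye-specification Pax6 gene. Over all classes 52 peaks lay in INE-1, of 2235 annotated copies. The windows of the 18 summits, 50 bp to either side, were each found once in the assembly. How the authors treated reads that align in several places could not be learned from the labels or headers, and its part in these peaks was not tested. With transposable elements counted as genes, their starts included, 568 members were left, of which 18% held the core.

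Base composition dipped at the summits. The median GC content was 33.7% within 50 bp of the intergenic summits and 42.6% in their flanks. Of the intergenic summits, 455 (74.6%) were lower than their flanks, against 78.2% of all summits. Distal summits in genes had 33.7% and TSS-proximal summits 32.7%. Summits with the core had a median of 37.6% and those without it 32.7%. The word TATAAA stood at 21.8% of the summits and in 12.3% of the flanks, against 22.5% and 10.7% over all peaks. CACACACA stood at 0.492% of the summits and in 4.67% of the flanks, against 0.719% and 3.96% over all peaks. GAGAG, the word of GAGA factor, stood at 6.56% and in 13.3%, against 8.73% and 14.4% over all peaks.

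Among the other words searched, CGATA, the word of BEAF-32, stood at 81 summits (13.3%) and in 11.6% of the flanks. TAATTA, a homeodomain word, stood at 64 (10.5%) and in 7.05% of the flanks, and CACATG at 32 (5.25%) and in 5.08%. Longer words stood at few summits. GCATACTT stood at 11 summits (1.80%) and in 3 flank windows (0.246%), and at 0.812% of all summits. TATCGATA, the word of the DREF factor, stood at 4 summits (0.656%), against 1.72% of TSS-proximal summits and 0.998% of all summits. CAGGTAG, the word of the early activator Zelda, stood at 8 summits (1.31%) and in 0.410% of the flanks, with overlapping intervals. AGNNGGCGC, the word of CTCF, stood at 10 (1.64%) and in 0.820% of the flanks. GCCATTAA, a word of Pleiohomeotic, stood at none of the 610, which allows a share of up to 0.603% (exact interval), and GGTCACACT at 1. Their shares over all summits were 0.371% and 0.232%. A match describes letters only, and none of these words was tested as a binding site.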

How the data were processed

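D19B-GFP ChIP-seq peaks from 2 libraries of 1 group were used. The signal values, which are the authors' height of each region, the −log10 q-values and the summit offsets (another kind of value, in bases) were taken as deposited, per the file headers and format. How the signal was computed is not given there. Read depth is unknown from these lists. For the aligner, the peak caller and the IDR threshold, nothing is given in the sources used here.

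Summits (dm6, 1-based) were classed with the Ensembl release 115 annotation, and sequence was read from RefSeq's release 6 genome. A summit within 100 bp counted as shared. Words were searched in windows that reach 50 bp to either side of the summit, and in flank windows of that length centred 500 bp away. Shares carry 95% exact (Clopper-Pearson) and densities 95% exact Poisson intervals, for counting error only. Python 3.11.15, numpy 2.4.6, pandas 2.3.3, scipy 1.17.1 and matplotlib 3.10.9 were used, and the steps were tested on simulated data. The members and the lists were chosen with earlier results of these data known, and GGGTAT and the 10-base words after seeing the data. Named were the 15 tallest members, the 3 farthest from a TSS, the 2 tallest of each list and the 5 fullest gaps. Among equally full gaps, shorter ones came first. Also named were the tallest per word outside arm 2R and extremes between replicates. These and the INE-1 peaks were chosen after their values were seen. Peak lists on dm3 were not used.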

Additional observations from a re-analysis of the deposited data

How the results depend on the processing

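Of the 57 alternatives run, 31 stayed within the interval or spread of the reported value and 26 moved beyond it. None reversed a direction, but that count is no test. The intergenic share and the share in both libraries have no direction to reverse, and GGGTAT was picked after the data were seen. No paired analysis was possible because both libraries belong to 1 group. The intergenic share of 14.2% became 21.7% with a TSS distance of 200 bp, 11.2% with 1000 bp, 16.8% with only protein-coding genes counted and 11.7% among the taller peaks (those above the median signal); it ran from 12% (replicate 2 list) to 17.5% (replicate 3 list) with 1 library left out. The share found in both libraries was 93.6% among the taller peaks, 66.6% with summits within 50 bp and 95.2% within 250 bp. The log2 ratio of the members' median signal to that of all peaks, -0.14, was -0.04 with 200 bp and -0.05 among the taller peaks, and ran from -0.14 to -0.05 with 1 library left out. The share with ACAGGGTA was 1.64% in 51 bp, 7.87% in windows of 100 bp to either side, 15.2% with 1 mismatch allowed (2.87% in flanks) and 3.68% to 6.23% with 1 library left out. The share with GGGTAT was 9.84% in 51 bp, 36.7% in windows of 100 bp to either side, 15.5% among the taller peaks and 17.4% to 22.8% with 1 library left out. Median GC at the summit was 32.7% with 200 bp, with 1000 bp, with transposable elements as genes and among the taller peaks, 34.8% in windows of 100 bp to either side, and 33.7% to 34.7% with 1 library left out. The cause of these moves was not tested, beyond the fewer or other peaks and the longer or shorter windows that the alternatives themselves use.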
